A study of Mus musculus with 8 samples.

Results

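The baseline difference between the 2 mouse embryonic stem (ES) cell lines of the study was read from the libraries treated with ethanol (labelled ETOH, here EtOH), the solvent of 4-hydroxytamoxifen. The members were the 2 EtOH libraries of the Hdac1lox/lox line and the 2 EtOH libraries of the Hdac2lox/lox line, 4 of the 8 libraries of the series. The other 4, 2 from each line, were labelled 4oht (here 4OHT) and gave the line difference after 4OHT, the agent given to the floxed lines in place of the solvent alone. All 8 were RNA-seq libraries of haemogenic endothelium made by differentiating ES cells of strain C57BL/6. The Hdac1lox/lox line (the Hdac1 line below) had both alleles of Hdac1 flanked by lox sites, and the Hdac2lox/lox line (the Hdac2 line) both alleles of Hdac2. Both lines had thus been engineered, and no unmodified line is among the samples analysed here. The labels name no clone, passage, sex, recombinase or promoter for either line. Each genotype is known here from 1 line, so genotype and cell line cannot be told apart. No label says that replicates came from separate cultures, so the p-values rest on a spread between samples that may be technical.

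Haemogenic endothelium is the endothelium from which the first blood cells bud in the embryo, in a step called the endothelial-to-haematopoietic transition, in which endothelial genes are switched off and blood genes on. HDAC1 and HDAC2 are closely related histone deacetylases that remove acetyl groups from histone tails and act within repressor complexes such as NuRD, Sin3 and CoREST. A gene flanked by lox sites is meant to work normally until a recombinase removes it, and cells kept in solvent serve as the undeleted control. ES cell lines are known to gain or lose chromosomes in long culture, and to vary at imprinted genes, of which only the copy from 1 parent is normally read.

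The EtOH libraries held 17125110 and 19552380 counts in the Hdac1 line and 15387579 and 10215792 counts in the Hdac2 line. CPM (counts scaled to library size by TMM) is the unit of every level below, and 3 counts, taken as the floor, were worth 0.15 to 0.287 CPM depending on the library. Of 37085 autosomal genes in the table, 13552 passed the filter on low counts and were tested. Hdac1 (chromosome 4, 129516104 to 129542713, mm10) stood at 5.78 and 5.6 CPM in the Hdac1 line and 7.45 and 7.16 CPM in the Hdac2 line, a log2 difference of -0.36 ± 0.23 (standard error, as for every log2 fold change below) with an adjusted p of 0.31. Its level is uncertain, since 80.4% of the 50-base words in the transcripts of Gm10093, a gene on chromosome 17 at 125 to 156 CPM over the 4 libraries that was looked up after these values were seen, also occur in Hdac1 transcripts. Hdac2 (chromosome 10, 36974544 to 37001889) stood at 148 and 142 CPM against 165 and 151 CPM, a log2 difference of -0.12 ± 0.14 with an adjusted p of 0.57. Neither targeted gene passed the test between the lines.

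Libraries did not group by label alone. In the Hdac1 line, EtOH replicates 1 and 2 differed by a median of 0.394 in log2 CPM, and 1547 of 13552 autosomal genes (11.4%) differed more than 2-fold between them. EtOH replicate 1 lay closer to replicate 2 of the 4OHT libraries of its line (0.261), and EtOH replicate 2 closer to 4OHT replicate 1 (0.197, with 544 genes beyond 2-fold), than the EtOH replicates lay to each other. The Hdac2 EtOH replicates differed by a median of 0.200, with 807 genes (5.95%) beyond 2-fold. Hdac1 EtOH replicate 1 was also closer to Hdac2 EtOH replicate 2 (0.332) than to its own replicate. In a principal component analysis of all 8 libraries, the component with 50.2% of the variance put Hdac1 EtOH replicate 2 (21.4) apart from the other EtOH libraries (-63.7 to -37.6), and the component with 27.6% set the lines apart (-46.3 and -27.9 in the Hdac1 line, 22.4 and 37.3 in the Hdac2 line).

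Between the lines, 1269 of 13552 tested autosomal genes (9.36%) passed edgeR's quasi-likelihood test at an adjusted p of 0.05. Of these, 882 (6.51%) were higher in the Hdac1 line and 387 (2.86%) were lower. A difference of at least 2-fold was fitted for 609 of the higher and 206 of the lower genes. The lines' libraries did not overlap for 8165 genes (60.2%), and 4488 genes (33.1%) had an unadjusted p under 0.05. Higher genes made up 69.5% of the calls with TMM scaling, 80.2% of 1498 calls with no scaling beyond library size and 79.6% of 1557 calls with TMM on the 15 autosomes other than 8, 11, 14 and 16 (below), a setting added after the data were seen. The number called rested on single libraries: it was 3706 without Hdac1 EtOH replicate 1 and 171 without Hdac1 EtOH replicate 2. Only H19 passed without Hdac2 EtOH replicate 1, and only H19 and Hand2 without Hdac2 EtOH replicate 2, where 2358 and 3343 genes had an unadjusted p under 0.05, so every other gene named below lost its call in these 2 settings. DESeq2 called 2680 genes, and a fit to the 4 EtOH libraries alone called 134. Leaving out a 4OHT library, which enters the EtOH contrast through the shared estimate of the spread, gave 166 and 167 calls for the Hdac2 line and 1145 and 1202 for the Hdac1 line.

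The difference between the lines was not spread evenly over the genome. Autosomes 8, 11, 14 and 16 stood higher in the Hdac1 line as whole groups of genes. Each autosome was summarised by the median log2 fold change of its tested genes minus that of all autosomal genes. This relative median was 0.36 on autosome 8 (749 genes), 0.32 on autosome 11 (1191 genes), 0.43 on autosome 14 (452 genes) and 0.26 on autosome 16 (442 genes), or 1.28-, 1.25-, 1.35- and 1.19-fold. The other 15 autosomes lay between -0.17 (autosome 15) and 0.02 (autosome 19). The share of genes above the autosomal median was 75.4%, 72.2%, 73.0% and 66.1% on autosomes 8, 11, 14 and 16, and 40.04% to 50.5% on the others. Genes that passed the test made up 14%, 17%, 20.4% and 13.1% of those autosomes, against 5.39% to 9.38% on the others. Together the 4 autosomes held 426 of the 882 higher genes and 31 of the 387 lower genes among 2834 tested, while the other 15 held 456 higher and 356 lower genes among 10718 tested. The 4 were set apart by these same EtOH values, so their shares of the EtOH calls are not a separate reading of the shift.

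**Figure D1:**
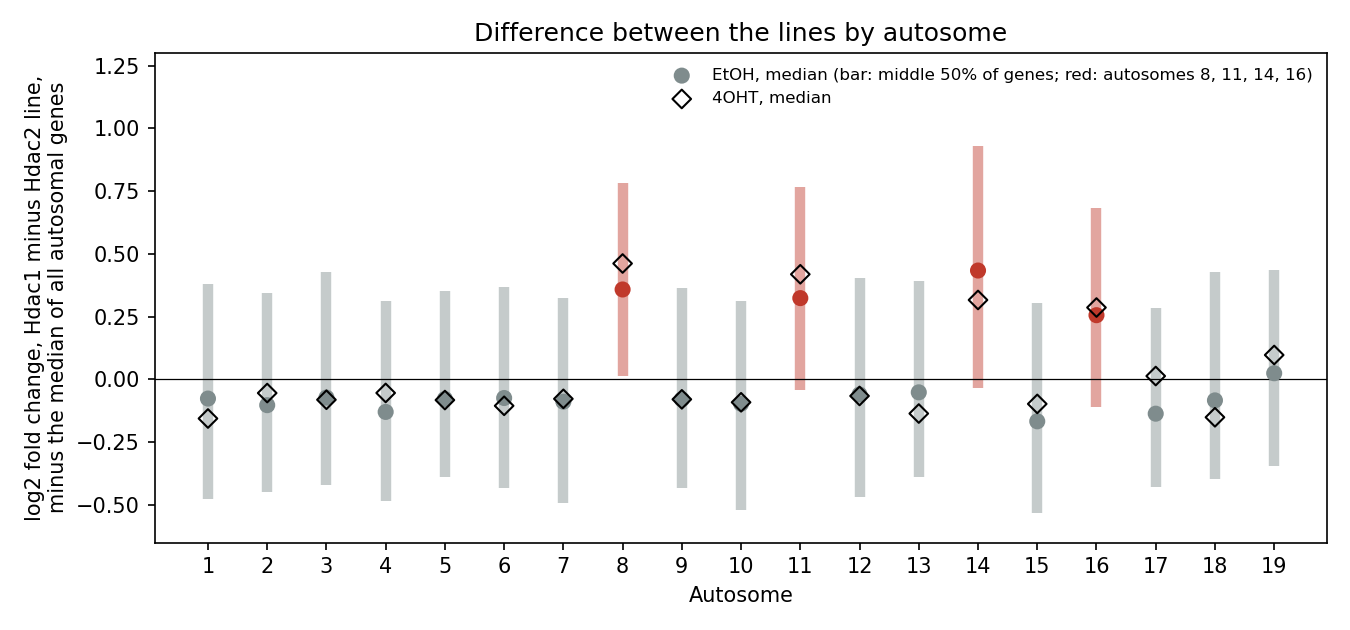
Relative median log2 fold change (Hdac1 minus Hdac2 line, vertical axis) for each autosome (horizontal axis) in EtOH libraries (filled points, with bars spanning the middle 50% of genes) and 4OHT libraries (open diamonds). Autosomes 8, 11, 14 and 16 sit between 0.26 and 0.43 in EtOH and the other 15 between -0.17 and 0.02.

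The shift was also taken library by library, relative to the 4 EtOH libraries together. For each library the median over genes of log2 CPM minus the mean of the 4 EtOH libraries was taken and centred on all autosomal genes. On autosome 8 it was 0.19 and 0.17 in the Hdac1 line and -0.21 and -0.15 in the Hdac2 line. On autosome 11 it was 0.20 and 0.12 against -0.19 and -0.15, and on autosome 14 it was 0.17 and 0.24 against -0.26 and -0.15. On autosome 16 it was 0.12 and 0.12 against -0.16 and -0.08. On these 4 autosomes both libraries of the Hdac1 line lay above both libraries of the Hdac2 line, and the gap between the lines exceeded the spread within them. The lines also did not overlap on 14 of the other 15 autosomes, where the Hdac1 line lay lower by smaller amounts, and overlapped on autosome 19. With 2 libraries against 2, an exact two-sided permutation test cannot go below 0.333, so these medians are descriptions. Reads from the 4 autosomes were 26.1% and 26.5% of autosomal counts in the Hdac1 line and 20.5% and 21.02% in the Hdac2 line. The shift was present in every alternative: over all of them, those without single libraries included, the relative median ranged from 0.34 to 0.40 on autosome 8, from 0.29 to 0.37 on autosome 11, from 0.40 to 0.48 on autosome 14 and from 0.19 to 0.30 on autosome 16, and no other autosome exceeded 0.04.

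**Figure D2:**
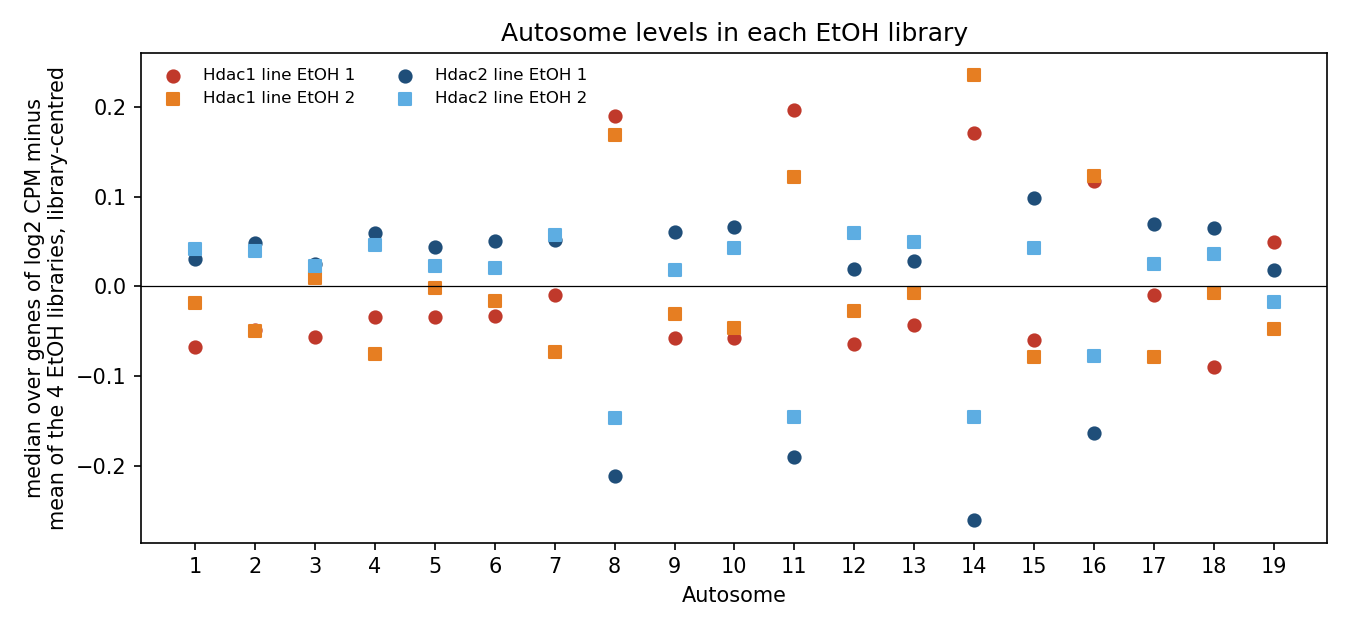
Median deviation in log2 CPM from the mean of the 4 EtOH libraries (vertical axis), centred within each library, for each autosome (horizontal axis) and library (symbols). Both Hdac1 libraries lie above 0.11 and both Hdac2 libraries below -0.07 on autosomes 8, 11, 14 and 16.

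The 4OHT libraries share no sample with the EtOH comparison and showed the same 4 autosomes high. Their relative medians were 0.46 on autosome 8, 0.42 on autosome 11, 0.32 on autosome 14 and 0.29 on autosome 16, and lay between -0.16 and 0.10 on the others. The shift was present at every level of expression: among genes over 80 CPM it was 0.26, 0.32, 0.27 and 0.24 in EtOH on autosomes 8, 11, 14 and 16, and among genes under 5 CPM it was 0.53, 0.35, 0.62 and 0.37. The X chromosome, outside the autosomal genes, had a relative median of -0.002 over 610 genes. Copy number was not measured here, and its part in the shift was not tested.

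Along autosome 14 the shift was highest in an inner stretch. Tested genes were taken in order along each chromosome in windows of about 50. On autosome 14, the 250 genes of windows 4 to 8 (46383520 to 99046136, mm10, from Bmp4 to Mzt1) had a relative median of 0.69, or 1.61-fold, and 88.4% of them lay above the autosomal median. Of these genes 71 were higher in the Hdac1 line and 0 lower. The window before them (31139013 to 46084815) stood at 0.28. The first 2 windows (7293648 to 31139121, 100 genes) stood at 0.002 and the last (99046427 to 123985816, 52 genes) at 0.03. Per library, windows 4 to 8 deviated by 0.32 and 0.33 in the Hdac1 line and by -0.41 and -0.26 in the Hdac2 line. In the 4OHT libraries the same windows stood at 0.64, or 1.55-fold, the first 2 at -0.20 and the last at -0.17. The borders of these segments were placed after the window values were seen.

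On autosomes 8, 11 and 16 no window fell to 0 or below. All 15 windows of autosome 8 were above 0 in EtOH (0.17 to 0.57), as were all 24 windows of autosome 11 (0.05 to 0.55) and all 9 windows of autosome 16 (0.06 to 0.44). On the other 15 autosomes 59 of 213 windows were above 0, within a range of -0.44 to 0.28. The lowest, looked at after its values were seen, was on autosome 10 (57515774 to 62974185), with 10 lower and 3 higher genes. It stood at -0.45 in 4OHT too, and holds Pald1, Hk1 and Ddit4 (below).

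**Figure D3:**
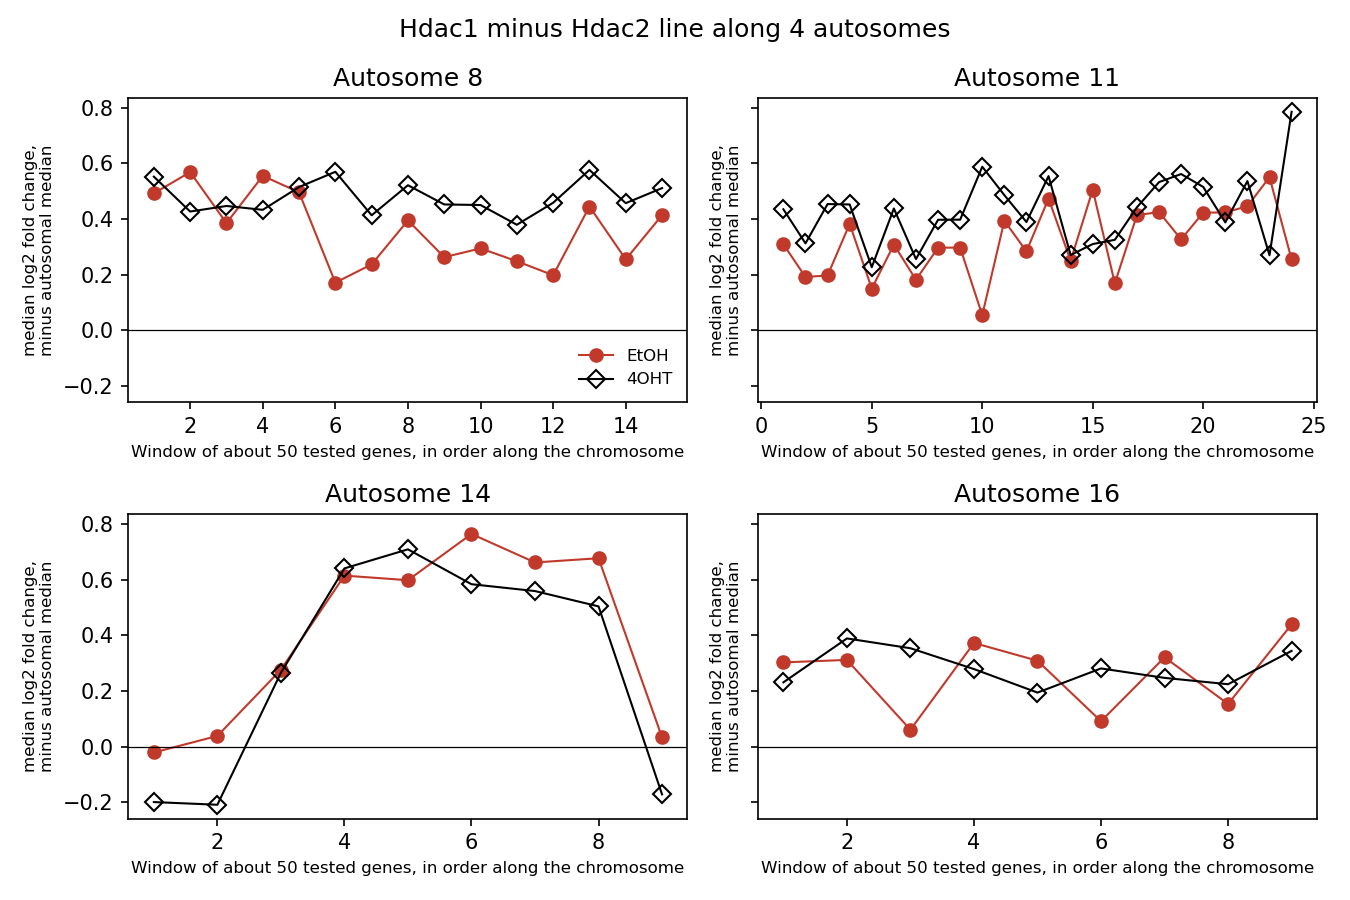
Relative median log2 fold change (Hdac1 minus Hdac2 line, vertical axes) in windows of about 50 tested genes, in order along autosomes 8, 11, 14 and 16 (horizontal axes), in EtOH (red) and 4OHT (black) libraries. Windows 4 to 8 of autosome 14 lie between 0.60 and 0.76 in EtOH, while its windows 1, 2 and 9 lie between -0.02 and 0.04.

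Single calls were compared with those in the 4OHT libraries. There 1086 autosomal genes (8.01%) passed the test between the lines, 578 higher (4.27%) and 508 lower (3.75%) in the Hdac1 line. Of the EtOH calls 183 passed in the same direction, which is 14.4% of the EtOH calls and 16.9% of the 4OHT calls, and 18 passed in the opposite direction. Of the 426 higher genes on autosomes 8, 11, 14 and 16, 362 (85.0%) had the same sign in 4OHT and 75 were called there. Of the 456 higher genes on the other 15 autosomes, 175 (38.4%) had the same sign and 29 were called. Of the 356 lower genes on the other 15 autosomes, 280 (78.7%) had the same sign and 74 were called, and of the 31 lower genes on the 4 autosomes 18 (58.06%) had the same sign and 5 were called. Over all tested genes the same sign was found for 66.9% on the 4 autosomes and 46.7% on the other 15. The difference of the line differences itself was tested for every gene, and 4 autosomal genes (0.0295%) passed: Hand2 (below), Sprr2b, Slc6a9 and Car4, the last 3 named after their values were seen. Of these, Hand2, Sprr2b and Slc6a9 were among the EtOH calls. In the same test with limma-voom only Hand2 of the 4 passed, and Sprr2b, Slc6a9 and Car4 had adjusted p of 0.062, 0.059 and 0.059. With replicate number as a term in edgeR none of the 4 passed (adjusted p 0.074 for each). Slc6a9, a glycine transporter gene, stood at 17.7 and 16.6 CPM in the Hdac1 line and 52.2 and 42.2 CPM in the Hdac2 line in EtOH, and at 23.9 and 24.1 CPM against 9.62 and 6.93 CPM in 4OHT, so that the order of the lines turned. Across all 13552 genes the EtOH and 4OHT fold changes had a Pearson r of 0.15, given as a description since genes are not independent.

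The calls also followed transcript length, and 1 library stood apart in this. Tested genes were split into 5 bins of about equal size by their longest annotated transcript. The median log2 fold change was -0.27 in the shortest bin (57 to 1690 bases), then -0.14, -0.04 and 0.10, and 0.53 in the longest bin (5176 to 123179 bases). The longest bin held 412 higher genes (15.3%) and 34 lower genes (1.26%), and the shortest held 41 higher and 81 lower genes. In the longest bin Hdac1 EtOH replicate 2 deviated by 0.53 from the mean of the 4 libraries, Hdac1 EtOH replicate 1 by -0.03, and the Hdac2 replicates by -0.31 and -0.18. Replicate 2 of the Hdac1 line thus stood apart. Replicate 1 lay near the mean, which replicate 2 enters, and above both Hdac2 replicates. In the shortest bin replicate 1 stood at 0.05, below the Hdac2 replicates at 0.18 and 0.09. In the 4OHT libraries the trend ran the other way, from 0.21 in the shortest to -0.25 in the longest bin. The shift of autosomes 8, 11, 14 and 16 did not follow this trend: within each bin the median of their genes exceeded that of the other autosomes by 0.32 to 0.51 in EtOH and by 0.37 to 0.50 in 4OHT. The part that transcript length plays in the single calls was not tested. The median length was 4986 bases among higher genes, 2813 among lower genes and 3228 among all tested genes. Without Hdac1 EtOH replicate 2 it was 5221 among the 147 genes then called higher and 4190 among the 24 called lower.

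**Figure D4:**
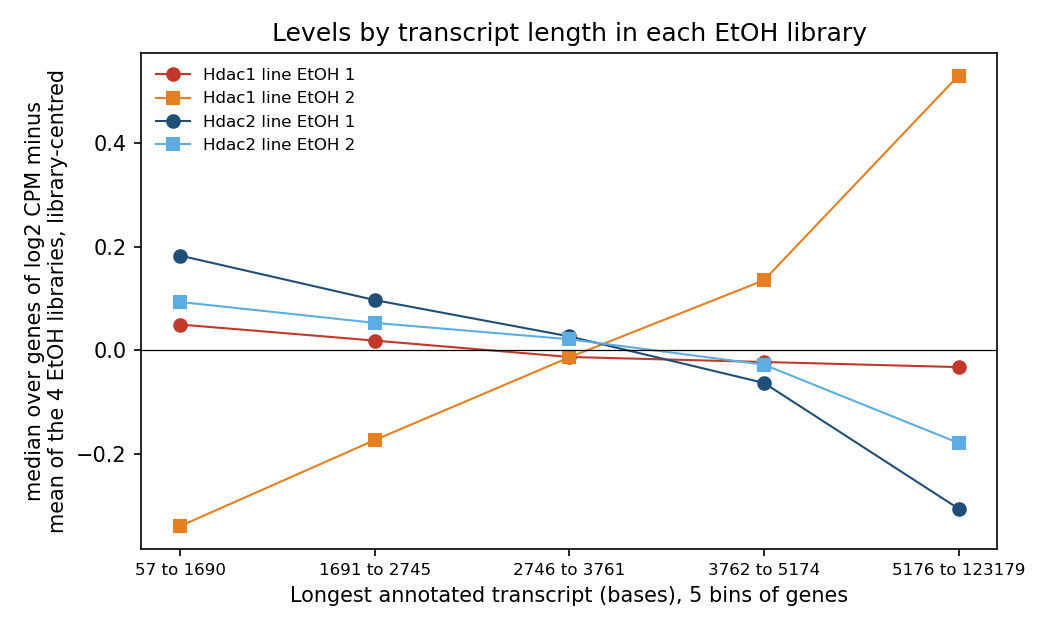
Median deviation in log2 CPM from the mean of the 4 EtOH libraries (vertical axis) in 5 bins of genes by longest transcript (horizontal axis, bases), 1 line per library. Hdac1 line EtOH 2 runs from -0.34 to 0.53, while Hdac1 line EtOH 1 stays between -0.03 and 0.05.

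Of the called genes of at least 5 CPM on average, the highest log2 fold change was at H19, an imprinted non-coding RNA read from the maternal copy (chromosome 7, 142575529 to 142578143). H19 reached 1537 and 1751 CPM in the Hdac1 line against 10.1 and 31.6 CPM in the Hdac2 line, so that the lines were far apart. Its log2 fold change was 6.31 ± 0.55 with an adjusted p of 0.0056, and 7.15 in the 4OHT libraries, and it passed in all 19 alternatives. Its partner Igf2, the paternally read growth factor gene of the same cluster, was named after its values were seen. It went the other way, at 6160 and 4638 CPM against 10132 and 11457 CPM (log2 -1.0 ± 0.21, adjusted p 0.033).

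Igf2r, which encodes the receptor that takes up and degrades IGF2 and is read from the maternal copy, was the gene of autosome 17 with the smallest p (12682406 to 12769664). It stood at 262 and 378 CPM in the Hdac1 line and 33.1 and 34.1 CPM in the Hdac2 line. Its log2 fold change was 3.25 ± 0.22 (adjusted p 0.0056) in EtOH and 1.93 (adjusted p 0.013) in 4OHT. Airn, the non-coding RNA that overlaps Igf2r on the opposite strand and is read from the paternal copy, was also named after its values were seen, at 1.75 and 2.45 CPM against 2.98 and 2.67 CPM (adjusted p 0.38). In 4OHT it was lower in the Hdac1 line (log2 -3.23, adjusted p 0.013), at 1.18 and 1.31 CPM against 9.62 and 14 CPM. Its counts are uncertain unless strand was used in counting. Hand2, a transcription factor of heart and limb (chromosome 8, 57320983 to 57324517), stood at 98 and 106 CPM in the Hdac1 line and 6.94 and 11.8 CPM in the Hdac2 line. Its log2 fold change was 3.46 ± 0.29 (adjusted p 0.0056) in EtOH. In 4OHT it was reversed, -1.18 (adjusted p 0.038), with 52.4 and 38.7 CPM against 95.6 and 110 CPM.

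The 250 bases before the RefSeq start of Igf2r and Hand2 are printed because Igf2r is the imprinted protein-coding gene with the smallest p and Hand2 is 1 of the genes whose order of lines turned between EtOH and 4OHT, each 5′ to 3′ on the gene's strand, from RefSeq on GRCm38.p6. Capitals mark CpG, the letters CG, which read the same on both strands and are the sites of DNA methylation in mammals. The Igf2r stretch (chr17:12769707-12769956, minus strand) holds 27 CpG and the Hand2 stretch (chr8:57320733-57320982, plus strand) holds 15. Among 32851 such stretches, 8.56% hold at least 27, 27.3% hold at least 15 and 92.1% hold any, and the median is 6.
Igf2r: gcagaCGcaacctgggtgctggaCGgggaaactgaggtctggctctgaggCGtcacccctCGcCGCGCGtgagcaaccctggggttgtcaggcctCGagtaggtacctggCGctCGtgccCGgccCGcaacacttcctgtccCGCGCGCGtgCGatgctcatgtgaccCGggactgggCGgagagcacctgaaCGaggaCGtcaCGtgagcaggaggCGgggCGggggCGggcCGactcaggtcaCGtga
Hand2: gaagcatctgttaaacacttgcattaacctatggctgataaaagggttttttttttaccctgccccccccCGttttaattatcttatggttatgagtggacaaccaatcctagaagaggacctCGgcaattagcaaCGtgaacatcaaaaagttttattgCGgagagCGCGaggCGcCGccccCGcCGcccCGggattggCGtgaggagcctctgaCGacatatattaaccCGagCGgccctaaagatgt
The CpG are spread over the whole Igf2r stretch and lie mostly in the 3′ part of the Hand2 stretch. Methylation was not measured.

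Of 30 imprinted genes tested, 4 were higher in the Hdac1 line (H19, Igf2r, Ppp1r9a and Asb4) and 3 were lower (Sgce, Mest and Igf2), 23.3% against 9.36% of all autosomal genes. The median log2 fold change of the list was -0.16, against 0.01 over all autosomal genes. Sgce, the paternally read gene for epsilon-sarcoglycan, stood at 40.8 and 43.4 CPM against 92.9 and 86.9 CPM (log2 -1.09 ± 0.14, adjusted p 0.016). It was the gene of autosome 6 with the smallest p and was lower in 4OHT too (-0.64, adjusted p 0.037). Mest, also paternally read, was named after its values were seen and stood at 2762 and 4334 CPM against 7522 and 8092 CPM. Of the 7 calls, 4 were met by a call in the same direction in 4OHT.

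The 10 highest log2 fold changes among called genes of at least 5 CPM belonged to H19, Pdlim3, Gpm6a, Runx1t1, Dst, Nefl, Prrt4, Hand2, Pdzd2 and Akap5. Dst, a very long gene for a cytoskeletal linker protein, stood at 73 and 375 CPM in the Hdac1 line and 21.1 and 16.3 CPM in the Hdac2 line (log2 3.58 ± 0.73). Gpm6a, a neuronal membrane glycoprotein gene, stood at 24.9 and 82.1 CPM against 3.11 and 2.77 CPM (log2 4.18 ± 0.74). Nefl, which encodes the light neurofilament protein, stood at 36.7 and 135 CPM against 9.98 and 4.3 CPM (log2 3.56 ± 0.67). For these genes Hdac1 EtOH replicate 2 was far above replicate 1, and both lay above the Hdac2 line, as the naming rule requires. Of the 3, Nefl was higher in 4OHT as well (2.93, adjusted p 0.038), while Dst and Gpm6a were not called there (-0.95 and 0.58). F5, the gene for coagulation factor V on autosome 1, was even within the lines, at 43.5 and 38.8 CPM against 7.39 and 7.45 CPM. Its log2 fold change was 2.47 ± 0.18 (adjusted p 0.0056) in EtOH and 2.71 (adjusted p 0.0046) in 4OHT.

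The 10 lowest were Cbln1, Tmem119, Mogat2, Tcfl5, Tlr12 and Pcdhb22, the growth factor gene Pdgfc, the immediate early nuclear receptor gene Nr4a1 and the homeobox genes Cdx2 and Hoxd9. Pdgfc stood at 1.91 and 2.1 CPM in the Hdac1 line and 16.9 and 11.6 CPM in the Hdac2 line (log2 -2.82 ± 0.33, adjusted p 0.014). It was lower in 4OHT too (-1.7, adjusted p 0.027). Pcdhb22, a clustered protocadherin gene of autosome 18, stood at 5.13 and 3.4 CPM against 29.3 and 23.5 CPM (log2 -2.63 ± 0.28) and at -2.09 in 4OHT. Nr4a1 stood at 9 and 8.2 CPM against 73.2 and 61 CPM (log2 -2.96 ± 0.58), and its 4OHT value was -0.03 (adjusted p 0.98). At these 3 genes all 4 libraries separated the lines, as the naming rule requires.

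**Figure D5:**
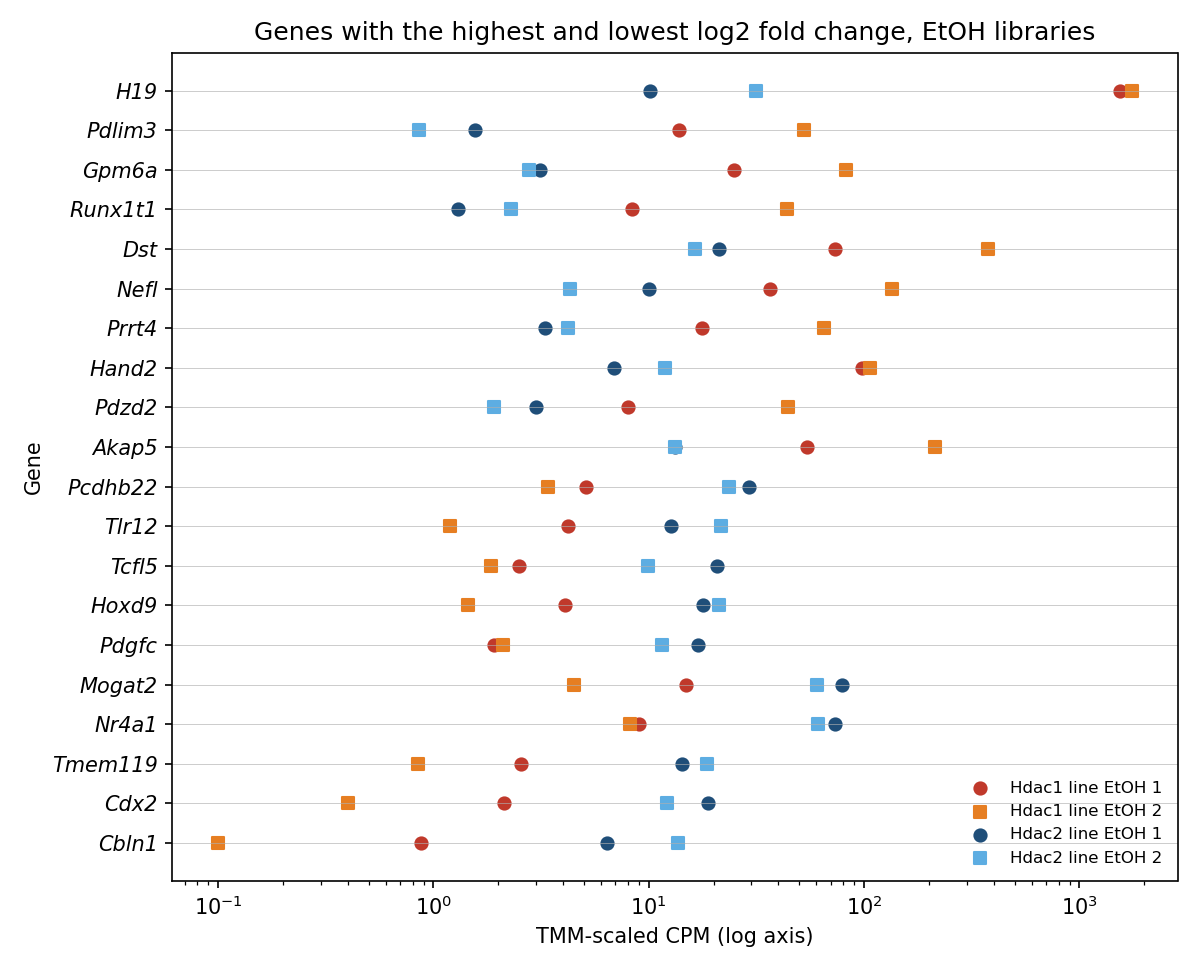
TMM-scaled CPM (horizontal axis, log scale) of the 10 highest and 10 lowest called genes (vertical axis) in the 4 EtOH libraries (symbols). The lines do not overlap at any gene, as the naming rule requires, and H19 spans 10.1 to 1751 CPM.

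On each autosome the called gene with the smallest p was also taken. Some of these were called in EtOH alone, and others in both settings. Cep250, which encodes a centrosome linker protein, stood at 119 and 173 CPM against 26.8 and 26.1 CPM (log2 2.46 ± 0.23), and at 0.06 in 4OHT. Ktn1, the kinectin gene on autosome 14, stood at 110 and 133 CPM against 27 and 31 CPM (log2 2.07 ± 0.18), and at 0.29 in 4OHT. Cpt1a, the gate enzyme of mitochondrial fatty acid oxidation, stood at 21.9 and 26 CPM against 8.17 and 8.31 CPM (log2 1.54 ± 0.19), and at -0.62 in 4OHT. Vps53 on autosome 11 was higher in both settings, at 52.4 and 52.8 CPM against 17.6 and 19.6 CPM (log2 1.5 ± 0.15 in EtOH, 1.18 in 4OHT, adjusted p 0.015). Its counts are uncertain, because Glod4 overlaps it on the same strand. Bin2 on autosome 15 and Tcof1, the treacle ribosome biogenesis gene of autosome 18, were also higher in both (Bin2 2.67 ± 0.33 and 1.74, Tcof1 1.7 ± 0.14 and 0.74). Pald1 on autosome 10 was lower in EtOH, at 54.3 and 74.5 CPM against 315 and 229 CPM (log2 -2.08 ± 0.22).

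The cells expressed their labelled type's defining genes in every library. Of 26 endothelial genes tested, 1 was higher (Clec14a) and 2 were lower (Esam and Ecscr) in the Hdac1 line, with a median log2 fold change of 0.08. That is 11.5% of the list, against 9.36% called over all autosomal genes (6.51% higher, 2.86% lower). Clec14a stood at log2 1.18 ± 0.26 in EtOH but was lower in the Hdac1 line in 4OHT (-1.12, adjusted p 0.04). Cdh5, the VE-cadherin gene, and Pecam1 were looked at after their values were seen. Cdh5 stood at 1296 and 2151 CPM against 786 and 745 CPM, with an adjusted p of 0.05. Pecam1 stood at 623 and 912 CPM against 441 and 454 CPM, with an adjusted p of 0.071. Autosomes 8, 11, 14 and 16, which stood higher in the Hdac1 line, hold 9 of the 26 endothelial genes. The part of position in the levels of this list was not tested. Summed endothelial levels were 5532 and 7907 CPM in the Hdac1 line and 5031 and 4957 CPM in the Hdac2 line. In bulk RNA, fewer cells of a type and less RNA per cell cannot be told apart. Of 15 arterial and Notch genes 1 was lower (6.67%), the chemokine receptor gene Cxcr4 (0.546 and 0.15 CPM against 5.25 and 2.96 CPM). Of 7 venous and lymphatic genes 1 was lower (14.3%), the apelin receptor gene Aplnr (255 and 105 CPM against 872 and 1102 CPM, log2 -2.46 ± 0.49). Aplnr was the only member of that list with a negative value, while 6 were positive and the list median was 0.35.

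Of 19 transcription factor genes of blood tested, 4 were higher in the Hdac1 line (Runx1, Meis1, Zfpm1 and Cbfa2t3) and 0 lower, 21.1% called against 9.36% of all autosomal genes (6.51% higher, 2.86% lower), with a median log2 fold change of 0.44. All 4 of these lie on autosome 8, 11 or 16, and 8 of the 19 members lie on the 4 shifted autosomes. Runx1, the factor required for blood cells to emerge from haemogenic endothelium, stood at 185 and 256 CPM in the Hdac1 line and 84.9 and 101 CPM in the Hdac2 line (log2 1.24 ± 0.23, adjusted p 0.027). In 4OHT its log2 fold change was 0.82 (adjusted p 0.066). Meis1, a homeobox factor of early blood progenitors, stood at 72.1 and 55.5 CPM against 15 and 20.5 CPM (log2 1.85 ± 0.24, adjusted p 0.017) and was higher in 4OHT as well (1.19, adjusted p 0.033). Zfpm1, which encodes the GATA1 cofactor FOG1, was higher in EtOH (0.95 ± 0.19) and in 4OHT (1.09).

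Genes of mature blood cells had mostly negative log2 fold changes, and few passed with edgeR outside the megakaryocyte list. The shares called were 5.26% for erythroid, 27.3% for megakaryocyte and 6.25% for myeloid and leukocyte genes. Over all autosomal genes 9.36% were called, 6.51% higher and 2.86% lower. Of 19 erythroid genes 0 were higher and 1 was lower, the embryonic globin gene Hbb-y at 14.8 and 9.15 CPM against 45.7 and 33.7 CPM. The median was -1.38, with 18 of 19 values negative, and summed levels were 1484 and 794 CPM in the Hdac1 line against 2398 and 2353 CPM in the Hdac2 line. With edgeR 14 of the 19 had an unadjusted p under 0.05, all lower, against 33.1% of all autosomal genes in either direction. DESeq2 called 8 erythroid genes lower and 0 higher, and limma-voom 2 lower and 0 higher. Of 11 megakaryocyte genes 3 were lower (Tubb1, Gp5 and Gp1bb), with a median of -1.57, while summed levels were 1020 and 1126 CPM against 918 and 927 CPM. Tubb1, the platelet beta tubulin gene, stood at 7.31 and 6.25 CPM against 30.9 and 19.8 CPM (log2 -1.9 ± 0.33), and at -2.58 in 4OHT. Of 16 myeloid and leukocyte genes 1 was higher (Lcp1) and 0 lower. The pan-leukocyte gene Ptprc, added after its values were seen, was at most 0.713 CPM in the 4 libraries.

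Markers of other cell types were counted in the same way. Of 16 cardiomyocyte genes 3 were higher in the Hdac1 line (Hand2, Myh7 and Myh6) and 0 lower, 18.8% against 6.51% higher over all autosomal genes. Hand2 lies on autosome 8, and Myh7 and Myh6 lie within windows 4 to 8 of autosome 14. In 4OHT Myh7 stood at -0.08 (adjusted p 0.94) and Myh6 at 0.31 (adjusted p 0.82), and Hand2 was reversed. The myosin genes were near the floor in the Hdac2 line: Myh7 had 85 counts in the Hdac1 libraries and 3 in the Hdac2 libraries, a depth-scaled ratio of 19.1 with an exact Poisson 95% interval of 6.33 to 94.7. Myh6 had 38 and 2 counts, a ratio of 12.8 with an interval of 3.32 to 109.9. Both intervals reflect counting error alone, as amplified reads with no molecular barcode are not independent. Of 23 smooth muscle and mesenchyme genes 0 passed with edgeR, where 6 had an unadjusted p under 0.05, 0 passed with limma-voom, and DESeq2 called 3 higher and 2 lower. Of 9 pluripotency genes, Sall4 was higher and Sox2 lower (0.382 and 0.2 CPM against 2.33 and 3.06 CPM), and 11 of the 20 on the list did not pass the filter on low counts. Of 10 endoderm and epithelial genes Foxa2 was higher, of 7 neuroectoderm genes Nes, and of 4 primitive streak genes Evx1 was lower. The shares called were 22.2%, 10%, 14.3% and 25% for pluripotency, endoderm, neuroectoderm and primitive streak genes, against 9.36% over all autosomal genes. Summed cardiomyocyte levels were 391 and 531 CPM in the Hdac1 line and 365 and 371 CPM in the Hdac2 line, and summed neuroectoderm levels were 322 and 588 CPM against 258 and 177 CPM. The part of such cells in the line difference was not tested.

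Hox and Cdx genes, which set position along the body axis, were lower in the Hdac1 line where they passed. Of 20 tested, 5 were lower (Hoxd8, Hoxd9, Hoxd10, Hoxc8 and Cdx2) and 0 higher, 25% of the list against 9.36% called and 2.86% lower over all autosomal genes, with a median of -1.65. Hoxd9 stood at 4.09 and 1.45 CPM in the Hdac1 line and 18 and 21.1 CPM in the Hdac2 line (log2 -2.82 ± 0.46, adjusted p 0.023). Its neighbour Hoxd8 stood at 9.71 and 5.85 CPM against 20.7 and 24.4 CPM (log2 -1.53 ± 0.27, adjusted p 0.025). Hoxd10 stood at 0.546 and 0.35 CPM against 2.85 and 4.01 CPM (log2 -2.91 ± 0.43, adjusted p 0.018). All 3 Hoxd genes were lower in 4OHT too, with adjusted p of 0.026 for Hoxd8, 0.031 for Hoxd9 and 0.022 for Hoxd10. Hoxd8 overlaps a tested gene on the opposite strand, so its counts are uncertain unless strand was used in counting. Hoxc8, named after its values were seen, had 0 counts in both Hdac1 libraries and 0.518 and 1.53 CPM in the Hdac2 line.

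For the TGF-β pathway, which the series title names, few genes passed. Of 25 pathway components tested 1 was higher and 1 lower, 8% of the list against 9.36% of all autosomal genes, with a median of 0.11. Ltbp1, whose protein holds latent TGF-β in the matrix, stood at 31.7 and 44.7 CPM in the Hdac1 line and 9.66 and 8.31 CPM in the Hdac2 line (log2 2.08 ± 0.25, adjusted p 0.014). It was lower in the Hdac1 line in 4OHT (-1.05, adjusted p 0.04). Bambi, a pseudoreceptor that blocks TGF-β and BMP signalling, stood at 60.6 and 37.1 CPM against 111 and 132 CPM (log2 -1.31 ± 0.27, adjusted p 0.032). Of 23 TGF-β-responsive genes 1 was lower, the matrix gene Tgfbi, at 13.9 and 7.95 CPM against 57.8 and 33.8 CPM, and it was lower in 4OHT as well (-2.13, adjusted p 0.043). Of 20 BMP pathway genes and targets 0 passed with edgeR, where 8 had an unadjusted p under 0.05, 0 passed with limma-voom, and DESeq2 called 3 higher and 2 lower.

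Of 31 subunits of the complexes that hold HDAC1 and HDAC2, 5 were higher in the Hdac1 line (Chd3, Chd4, Sap18, Phf21a and Arid4a) and 0 lower, 16.1% against 6.51% higher over all autosomal genes, with a median of 0.28. Chd3, Chd4 and Phf21a have transcripts of 7261, 6697 and 6332 bases, in the longest bin, where 15.3% of genes were higher. Sap18 lies within windows 4 to 8 of autosome 14. The part of length or position in these calls was not tested. Chd4, the main ATP-driven remodeller of NuRD, stood at 643 and 716 CPM against 337 and 371 CPM (log2 0.94 ± 0.17, adjusted p 0.028). Its paralogue Chd3 on autosome 11 stood at 39.8 and 77 CPM against 14.3 and 12.9 CPM (log2 2.1 ± 0.35). Chd3 was higher in 4OHT (1.37, adjusted p 0.049), and Chd4 was not called there (-0.15). Of 25 mitosis genes 5 were higher (Mki67, Cenpe, Cenpf, Top2a and Incenp) and 0 lower, 20% against 6.51% higher over all autosomal genes, with a median of 0.11. Mki67, the proliferation marker with a transcript of 10061 bases, stood at 557 and 871 CPM against 81.9 and 120 CPM (log2 2.82 ± 0.39, adjusted p 0.017). Cenpe and Cenpf, kinetochore genes with transcripts of 7910 and 11130 bases, stood at log2 2.3 ± 0.27 and 2.29 ± 0.33, and the 4OHT values of Mki67, Cenpe and Cenpf were -0.16, 0.03 and 0.25. Mki67, Cenpe and Cenpf also lie in the longest bin, where 15.3% of genes were higher. The part of length in the mitosis calls was not tested. Of 34 DNA replication genes 1 was higher (Rfc1) and 1 lower (Tyms).

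Amino acid stress genes driven by the factor ATF4 were the list with the largest share of calls among the 29 autosomal lists. Of 26 tested, 8 were lower in the Hdac1 line (30.8%, against 2.86% lower over all autosomal genes) and 0 higher, the median was -1.09 and 24 values were negative. The 8 were Cth, Sesn2, Gars, Mthfd2, Ddit4, Slc7a5, Slc3a2 and Vldlr. Sesn2, a sensor gene that restrains mTORC1, stood at 51.6 and 58.9 CPM against 146 and 94.3 CPM (log2 -1.12 ± 0.23). Ddit4, another inhibitor of that kinase complex, stood at 31.8 and 31.2 CPM against 111 and 61.7 CPM (log2 -1.46 ± 0.28). Vldlr, a lipoprotein receptor gene, stood at 4.8 and 4.45 CPM against 13.5 and 11.3 CPM (log2 -1.42 ± 0.22, adjusted p 0.02). None of the 8 was called in the same direction in 4OHT, where the values of Sesn2, Ddit4 and Vldlr were 0.0, 0.1 and -0.02.

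In 3 other metabolic and stress lists the share called was 4.76% for cholesterol synthesis, 7.69% for glycolysis and hypoxia and 10% for p53 targets. All of these calls were lower in the Hdac1 line, against 2.86% lower (9.36% called) over all autosomal genes. They rest on 1, 2 and 2 genes. In the same order DESeq2 called 6, 9 and 8 lower and 0, 1 and 0 higher, among 1019 lower and 1661 higher autosomal genes. All 21 cholesterol synthesis genes had negative log2 fold changes, with a median of -0.68, and 1 passed, the squalene epoxidase gene Sqle (194 and 137 CPM against 349 and 366 CPM). Of 26 glycolysis and hypoxia genes 2 were lower, and both were lower in 4OHT: the hexokinase gene Hk1 (-0.81 ± 0.14 in EtOH, -1.2 in 4OHT) and Ndrg1 (-1.3 ± 0.32 and -1.43). Of 20 p53 target genes 2 were lower (Sesn2 and Plk2), with a median of -0.53. Of 23 interferon-stimulated genes 4 were higher (Parp14, Parp9, Ifih1 and Ddx58) and 1 lower (Rsad2), with a median of 0.21. That is 21.7% of the list, against 9.36% called over all autosomal genes (6.51% higher, 2.86% lower). Parp14 and Parp9 lie on autosome 16, and 7 of the 23 members lie on autosomes 8, 11, 14 and 16. Ddx58, at log2 1.09 ± 0.26 in EtOH, was lower in the Hdac1 line in 4OHT (-1.2, adjusted p 0.033). Parp14 stood at 7.64 and 8.55 CPM against 1.43 and 2.2 CPM (log2 2.18 ± 0.37), and Parp9 lies beside a tested gene that overlaps it on the opposite strand. In 4OHT Parp14 stood at -0.5, Ifih1 at -0.81 and Parp9 at 0.15, and none of these was called. Of 22 basement membrane and matrix genes Fbn1 and Col4a1 were higher and Fbln1 lower, and of 17 immediate early and heat shock genes Nr4a1 was lower. Col4a1, the collagen IV gene on autosome 8, stood at 1102 and 3170 CPM against 551 and 471 CPM, and overlaps Col4a2 on the opposite strand. Of 6 genes known to vary in copy number between laboratory strains 0 passed with edgeR, DESeq2 or limma-voom, and 3 had an unadjusted p under 0.05 with edgeR. Over all lists, 34 of 534 tested members were higher (6.37%, against 6.51% of all autosomal genes) and 36 lower (6.74%, against 2.86%).

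Y-linked genes separated the lines too, and were looked at after their values were seen. The summed level of 4 Y-linked genes was 74.9 and 102 CPM in the Hdac1 line and 1.17 and 16.4 CPM in the Hdac2 line, where replicate 2 had 48 counts of Ddx3y, 59 of Uty and 59 of Eif2s3y and replicate 1 had 5, 8 and 5. In the Hdac2 4OHT libraries the sum was 1.01 and 1.42 CPM. Hdac2 EtOH replicate 2 thus stood above the other libraries of its line. Mitochondrial counts were 1.37% and 2.37% of the Hdac1 libraries and 2.67% and 2.55% of the Hdac2 libraries, and of 7 mitochondrially encoded genes tested 0 passed with edgeR, where 2 had an unadjusted p under 0.05.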

How the data were processed

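The authors deposited raw whole-number counts of reads per gene in a table of 41128 genes by 8 libraries. Per the labels' protocols, 200 ng of total RNA per sample went through a strand-specific Agilent kit with 15 cycles of amplification. The submitters' processing notes name the build mm10 and list edgeR 3.8.5, R 3.1.0, Bowtie2 2.2.1, SAMtools 0.1.19 and bcl2fastq 2.17.1.14, with no role. The program, annotation and strand setting behind the counts, and the handling of reads with several matches, are not given in the sources used, so levels of overlapping genes and near-identical copies are uncertain. Groups came from sample titles.

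The whole table was fitted here with edgeR 4.0.16 in R 4.3.3 (filterByExpr, TMM, robust quasi-likelihood, a mean for each of 4 groups over all 8 libraries). Benjamini-Hochberg adjustment ran over all 14179 genes tested at 0.05, and autosomal rows were reported. Standard errors came from the F statistic. Transcript lengths came from GENCODE M21. Alternatives used limma 3.58.1, DESeq2 1.42.0, other scalings, filters and sets of libraries. Where a library was left out, the sample left in that group was taken to vary as much as the others. On simulated counts, 100 of 100 genes changed 4-fold and 38 of 100 changed 2-fold were recovered among 13937 genes, with 6 false calls. The simulation gave every gene the same dispersion, changed only genes of at least 5 CPM and held no library that stood apart. It therefore checks the code and does not give the error rate in these data.

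The naming rule took Hdac1 and Hdac2, the 10 highest and 10 lowest called genes of at least 5 CPM over the EtOH libraries with no overlap between lines and no predicted name, the called gene with the smallest p on each autosome by the same filters, and up to 3 called members of each list. Of the 85 genes this gave, 7 overlap a tested gene of at least 0.1 times their CPM, 4 of them on the opposite strand. The members, the 29 autosomal gene lists and this rule were chosen with earlier results of these data known. Each list is described by counts and its median in the report.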

Additional observations from a re-analysis of the deposited data

Results flagged for a closer look

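Hand2 was flagged because its difference between the lines was not the same in EtOH and 4OHT libraries. The log2 fold change of the Hdac1 against the Hdac2 line was 3.46 in EtOH and -1.18 in 4OHT. The difference between these values was 4.63 in edgeR's quasi-likelihood test of the interaction, with an adjusted p of 0.019. The call was lost with the replicate block (adjusted p 0.074) and without Hdac2 EtOH replicate 1 (0.082) or 2 (0.066), Hdac1 4OHT replicate 2 (0.08), or Hdac2 4OHT replicate 1 (0.072) or 2 (0.12), while the difference stayed between 4.28 and 5.06 in these settings. Both Hdac1 libraries lay above both Hdac2 libraries in EtOH, as the naming rule requires, and both lay below them in 4OHT. Sprr2b, called on the same test and named after its values were seen, had 84 and 91 counts in the Hdac1 EtOH libraries and 1 and 1 in the Hdac2 EtOH libraries.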

How the results depend on the processing

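Over 19 alternatives and a further 1 added after the data were seen, the 85 named genes gave 1218 values on the same side of the threshold and 481 on the other, and 0 turned in sign among called genes. Outside the settings without single libraries, these counts moved by over 1.5 times. DESeq2 gave 2680 calls (1661 higher, 1019 lower), 421 with the same call in 4OHT, 991 with an interaction and 152 list members. With no filter on low counts there were 1976 calls, 685 lower, 313 with the same call in 4OHT and 609 with an interaction. The spread of autosome medians (highest minus lowest) was 0.499 there against 0.601, beyond the spread between replicates. The 4 EtOH libraries alone gave 134 calls (98 higher, 36 lower) and 12 list members, and with no scaling 8 calls had an interaction, with limma-voom 1.

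Replicate numbers do not pair the samples by any label, and the deviations of replicate 1 from the group means had a correlation of -0.04 between the EtOH groups over 13552 genes, -0.69 between the EtOH and 4OHT groups of the Hdac1 line and 0.27 between those of the Hdac2 line. With the replicate block there were 177 calls (142 higher, 35 lower), 21 with the same call in 4OHT, 0 with an interaction and 15 list members.

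Without single libraries, calls ranged from 1 to 3706, higher from 1 to 2171, lower from 0 to 1535, same calls in 4OHT from 0 to 350, interactions from 0 to 2277, list members from 1 to 195 and the spread from 0.523 to 0.661. Without Hdac2 EtOH replicate 1 or 2, the replicates left in the EtOH comparison were those of the Hdac1 line, which differed more; the cause of these and the other moves was not tested. The lowest depth, 10215792 counts, was in Hdac2 EtOH replicate 2, where levels under 0.287 CPM cannot be told from 0.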
